A study of Mus musculus with 9 samples.

Results

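The 10 genes described here encode proteins that store, polyadenylate and release messenger RNA in male germ cells: *Ybx2*, *Ybx3*, *Ddx25*, *Papolb*, *Pabpc1*, *Dazl*, *Boll*, *Elavl1*, *Cpeb1* and *Celf1*. They were chosen by name for this role, not by their values, and they are 10 of 32035 genes measured. RNAseq was performed on poly(A) RNA of whole testis from mice aged 15 weeks, with 3 samples per genotype, all on the C57Bl6/N background. The wild-type (WT) samples were compared with 2 lines carrying different homozygous alleles of *Kpna6*, the gene of importin α7, an adaptor that brings proteins into the nucleus. In *Kpna6* ΔIBB/ΔIBB mice exon 2 is lost, and a shortened protein without the domain that binds importin β is made. In *Kpna6* −/− mice a gene trap lies in the first intron, but the study's text describes a testis-specific first exon downstream of the trap that still gives full-length protein in germ cells, so this line is not a germ-cell null. According to the same text, *Kpna6* ΔIBB/ΔIBB males are sterile and *Kpna6* −/− males are fertile. The labels number the samples of each group but do not say in so many words that each came from a separate mouse, so P-values measure the spread between these samples.

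Between 24859751 and 31484692 estimated counts per sample fell on genes. *Kpna6* itself stood at 98.3, 163 and 176 TPM (a level corrected for transcript length and scaled to the same total in each library) in WT, at 33.7 ± 1.5 (SD, n = 3) in *Kpna6* ΔIBB/ΔIBB, and at 134, 137 and 141 in *Kpna6* −/− testis, so that 1 WT sample lay apart from the other 2. Against WT, the *Kpna6* ΔIBB/ΔIBB level was lower, with a log2 fold change of -1.79 ± 0.15 (SE, adjusted P = 1.94e-05, edgeR), and the *Kpna6* −/− value was -0.18 (adjusted P = 0.586). Markers of cell types differed as well. In *Kpna6* ΔIBB/ΔIBB against WT, 10 of 10 round spermatid markers and 10 of 10 elongating spermatid markers were lower, with medians of -0.52 and -0.37 on the log2 scale, and 10 of 10 Sertoli cell markers were higher, with a median of 0.58. The summed level of the round spermatid markers was 1981 to 2216 TPM in WT, 1613 to 1845 in *Kpna6* ΔIBB/ΔIBB and 1903 to 2090 in *Kpna6* −/− testis, and that of the Sertoli markers was 836 to 905, 1321 to 1585 and 985 to 1070 TPM. No gene of these 3 lists was absent from the libraries. In such bulk samples, fewer cells of a type and less RNA per cell cannot be told apart. Counting cells on sections, the study found fewer Sertoli cells and fewer round spermatids per tubule in adults of both lines. The higher Sertoli markers are thus a share of the RNA and not a count of cells. The part of these marker shifts in the results below was not tested.

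In late spermatogenesis, transcription stops as the nucleus is compacted, and messages for sperm proteins are made early, kept in ribonucleoprotein particles and translated days later. Y-box proteins coat such messages, DEAD-box helicases remodel and export them, poly(A) polymerases and poly(A)-binding proteins set and read the length of their tails, and DAZ, CPEB, ELAV and CELF proteins bind defined sequences in their 3′ ends and switch them on, stabilise them or mark them for decay. The comparison asks whether the messages of this machinery shifted in testes with altered importin α7.

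All 10 genes were detected in every sample, and all passed the filter on low counts in the comparisons. In GRCm38 (GENCODE M21), the genes on the plus strand were *Ybx2* (ENSMUSG00000018554) at chr11:69935796-69941605 and *Celf1* (ENSMUSG00000005506) at chr2:90940382-91019497. Those on the minus strand were *Ybx3* (ENSMUSG00000030189) at chr6:131364855-131388476, *Ddx25* (ENSMUSG00000032101) at chr9:35536647-35558528, *Papolb* (ENSMUSG00000074817) at chr5:142525838-142530076, *Pabpc1* (ENSMUSG00000022283) at chr15:36595661-36609668, *Dazl* (ENSMUSG00000010592) at chr17:50279395-50293636, *Boll* (ENSMUSG00000025977) at chr1:55248658-55363469, *Elavl1* (ENSMUSG00000040028) at chr8:4285382-4325413 and *Cpeb1* (ENSMUSG00000025586) at chr7:81347026-81455465. *Ybx2*, the germ-cell Y-box protein that packages stored messages, was the most abundant with a mean of 2527 TPM over the 9 samples, which placed it at rank 26 of 27191 genes with any signal. *Ybx3* with 1352 TPM and *Pabpc1*, the main cytoplasmic poly(A)-binding protein, with 1335 TPM followed at ranks 58 and 59, and their ranges overlapped. *Papolb*, the testis-specific poly(A) polymerase of round spermatids, had a mean of 224.5 TPM and *Boll*, the most ancient member of the DAZ family, 169.7 TPM. *Ddx25*, a gonadotropin-regulated helicase required to complete spermiogenesis, had 78.6 TPM and *Dazl*, a translational activator of early germ cells and spermatocytes, 62.4 TPM. *Elavl1* (HuR), which stabilises AU-rich messages, had 36.0 TPM, *Celf1*, which promotes decay and alternative splicing, 32.9 TPM, and *Cpeb1*, which recruits cytoplasmic polyadenylation, 11.6 TPM. The order therefore spanned from *Ybx2* to *Cpeb1* with overlapping neighbours at *Ybx3* and *Pabpc1* and at *Elavl1* and *Celf1*. Estimated counts behind these levels ran from 311 to 477 per sample for *Cpeb1* up to 64668 to 84001 for *Pabpc1*, so the values of *Cpeb1* are the least precise.

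In *Kpna6* ΔIBB/ΔIBB against WT, *Papolb*, *Boll* and *Ddx25* were lower and *Cpeb1* and *Celf1* were higher, each by less than 20%, whereas *Ybx2*, *Ybx3*, *Pabpc1*, *Dazl* and *Elavl1* did not pass the test. This made 5 of 10 genes at an adjusted P below 0.05 (edgeR, Benjamini-Hochberg over all genes), beside 36.6% of all 18797 genes tested. The groups did not overlap in these 5 genes, as in 49.9% of all genes. The median log2 fold change of the 10 genes was -0.01, beside 0.01 for all genes and -0.35 for 15 messages known to be stored in spermatids, of which 14 were lower. Most of the elongating spermatid markers given above are also among these 15 messages, so the results of both lists largely rest on the same genes.

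**Figure D1:**
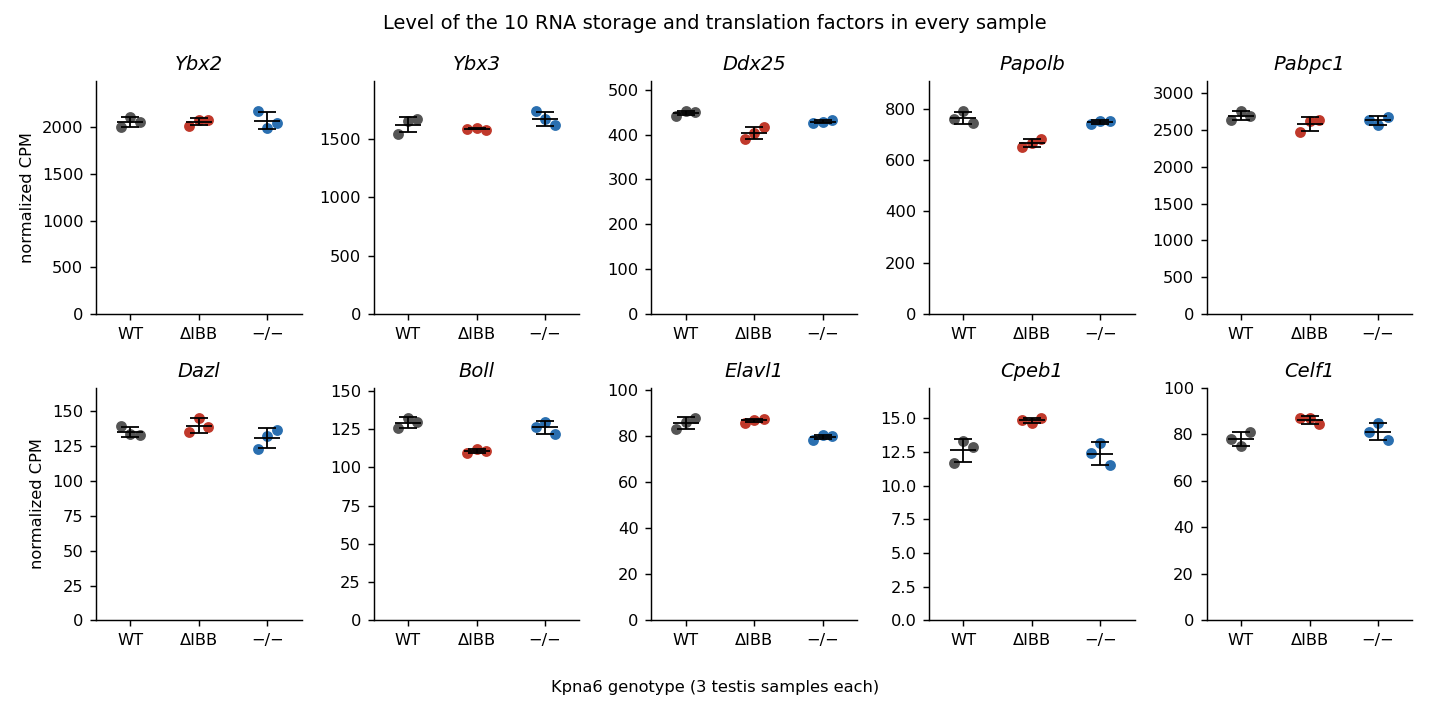
Normalized counts (CPM, relative to library size, scaled together over all 9 samples, linear axes from 0) for each gene, with 1 point per testis sample, the mean as a long bar and the SD as whiskers, for WT, *Kpna6* ΔIBB/ΔIBB and *Kpna6* −/−. *Papolb*, *Boll* and *Ddx25* are lower in all 3 *Kpna6* ΔIBB/ΔIBB samples than in any WT sample, and *Ybx2* overlaps between all groups.

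The values of the 3 genes called lower were as follows. *Papolb* measured 760, 790 and 743 normalized CPM in WT, 650, 665 and 682 in *Kpna6* ΔIBB/ΔIBB and 741, 752 and 751 in *Kpna6* −/−. The 3 *Kpna6* ΔIBB/ΔIBB samples lay below all others, and the log2 fold change against WT was -0.19 ± 0.035 (SE, n = 3 per group, adjusted P = 0.0016, edgeR). *Boll* measured 125.5, 132.2 and 129.8 CPM in WT, 109.5, 112.1 and 110.3 in *Kpna6* ΔIBB/ΔIBB and 126.5, 129.7 and 121.7 in *Kpna6* −/−. Again the *Kpna6* ΔIBB/ΔIBB samples did not overlap with either of the other groups, with a log2 fold change of -0.22 ± 0.041 (adjusted P = 0.0020, edgeR). *Ddx25* measured 442, 452 and 449 CPM in WT, 389, 403 and 416 in *Kpna6* ΔIBB/ΔIBB and 426, 429 and 432 in *Kpna6* −/−. The groups were ordered with no overlap, *Kpna6* ΔIBB/ΔIBB lowest, and the change against WT was -0.15 ± 0.036 (adjusted P = 0.0088, edgeR). The changes of all 3 genes kept this call with each of the 6 samples left out in turn.

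The promoters of these 3 genes are shown because the genes were picked as those called lower. CCAAT was marked because the Y-box to which Y-box proteins were first found to bind is an inverted CCAAT motif. A link between the motif and the calls was not tested. Each line gives the 250 bases before the RefSeq start site in GRCm38.p6, in the direction of transcription, with capitals marking every match to CCAAT or its reverse complement ATTGG.
Papolb, chr5:142530077-142530326, minus strand: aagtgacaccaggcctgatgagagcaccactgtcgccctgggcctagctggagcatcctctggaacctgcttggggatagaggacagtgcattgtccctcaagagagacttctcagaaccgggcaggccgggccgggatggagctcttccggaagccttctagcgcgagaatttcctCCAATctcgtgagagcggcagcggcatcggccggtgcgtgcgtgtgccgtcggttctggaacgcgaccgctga
Boll, chr1:55362729-55362978, minus strand: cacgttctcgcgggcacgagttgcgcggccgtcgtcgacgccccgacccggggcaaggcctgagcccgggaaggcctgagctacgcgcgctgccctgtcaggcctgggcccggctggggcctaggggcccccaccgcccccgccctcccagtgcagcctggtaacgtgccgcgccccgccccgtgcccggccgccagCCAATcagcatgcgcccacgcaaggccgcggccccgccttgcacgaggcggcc
Ddx25, chr9:35558471-35558720, minus strand: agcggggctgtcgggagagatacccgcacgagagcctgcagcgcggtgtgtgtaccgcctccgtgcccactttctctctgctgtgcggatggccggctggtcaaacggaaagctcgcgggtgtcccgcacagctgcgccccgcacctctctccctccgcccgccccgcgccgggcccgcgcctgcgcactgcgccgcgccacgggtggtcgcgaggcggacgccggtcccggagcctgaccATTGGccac

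Each of the 3 windows held 1 match, at 73 to 69 bases before the start in *Papolb*, 53 to 49 in *Boll* and 9 to 5 in *Ddx25*, and CCAAT on either strand occurred in 33.8% of all 32851 promoters of this length. None of the 3 windows held the cAMP response element TGACGTCA (1.55% of all promoters), its core TGACG (17.8%) or the X-box core GTTGCC (10.4%), on either strand. The *Boll* window is the one of 2 listed that begins within 2 bases of the start of *Boll-202*, its most abundant transcript. The other *Boll* window held none of these motifs. *Ddx25-201*, the single *Ddx25* transcript in the files, begins 58 bases upstream of the RefSeq start used here. The *Ddx25* match thus lies after the start of that transcript, not before it. Among the genes that did not pass the test, *Ybx2* had 2 CCAAT matches in 1 window and an X-box core match in another. The X-box match lies after the start of *Ybx2-201*, which begins 532 bases upstream of the RefSeq start of that window. So does 1 of the 2 CCAAT matches, as *Ybx2-201* begins 103 bases upstream of the other RefSeq start. *Dazl* had 1 CCAAT and 1 TGACG match, *Elavl1* had 2 CCAAT matches and *Ybx3* had none of these motifs. Of the genes called higher, *Cpeb1* had 1 TGACG match without CCAAT, and *Celf1* had none of these motifs.

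*Cpeb1* and *Celf1* were higher in *Kpna6* ΔIBB/ΔIBB. *Cpeb1* measured 11.7, 13.3 and 12.8 CPM in WT, 14.8, 14.6 and 15.0 in *Kpna6* ΔIBB/ΔIBB and 12.4, 13.2 and 11.5 in *Kpna6* −/−. The change against WT was 0.24 ± 0.08 on the log2 scale (adjusted P = 0.043, edgeR), without overlap. This call was lost whichever of the 6 samples was left out, with adjusted P-values up to 0.12, and DESeq2 gave an adjusted P of 0.091. *Celf1* measured 78.1, 75.0 and 81.1 CPM in WT, 87.0, 86.9 and 84.3 in *Kpna6* ΔIBB/ΔIBB and 81.0, 84.7 and 77.4 in *Kpna6* −/−. Its change against WT was 0.15 ± 0.05 (adjusted P = 0.030, edgeR), and the call remained in 2 of 6 fits with a sample left out. The direction of *Celf1* turned with length-scaled TPM counts, at -0.08 (adjusted P = 0.388, edgeR), and the limma value from log2(TPM + 1) was 0.03 (adjusted P = 0.745).

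The most abundant members were close to WT. *Ybx2* measured 2004, 2103 and 2055 CPM in WT, 2015, 2080 and 2076 in *Kpna6* ΔIBB/ΔIBB and 2168, 1995 and 2040 in *Kpna6* −/−, with all 3 groups overlapping. The fold change of *Ybx2* in *Kpna6* ΔIBB/ΔIBB against WT was 1.00 with a 95% interval of 0.959 to 1.05, and that of *Ybx3* was 0.98 (0.93 to 1.03). *Pabpc1* was at 0.962 (0.914 to 1.01), *Dazl* at 1.04 (0.97 to 1.11) and *Elavl1* at 1.02 (0.951 to 1.09). The result of *Elavl1* depended on the setting. It was called higher in 4 of 17 alternative fits, among them the edgeR fit of length-scaled TPM counts, which also uses TMM. The intervals of *Dazl* and *Pabpc1* reach sizes near that of *Celf1* and *Ddx25*, and that of *Ybx2* does not.

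These fold changes depend on the scale. TMM normalization sets the bulk of genes to about 0, and with it 48.4% of the called genes were higher. With scaling by library size only, the median of all genes moved to 0.11, 70% of the called genes were higher, and with limma on log2(TPM + 1) the median was 0.10 and the share 70.8%. On the library-size scale *Papolb* and *Boll* remained lower, at -0.10 (adjusted P = 0.030) and -0.12 (adjusted P = 0.027, edgeR), *Ddx25* at -0.05 did not pass (adjusted P = 0.265), and *Ybx2*, *Dazl* and *Elavl1* were called higher. On the limma scale *Papolb* was at -0.07, *Boll* at -0.05 and *Ddx25* at -0.02, none called, with *Ybx2* at 0.13, *Dazl* at 0.17 and *Elavl1* at 0.29 called higher. *Cpeb1*, at 0.67 on that scale, did not pass either (adjusted P = 0.052), so that 0 of the 5 genes called with TMM were called there. The directions given for *Papolb*, *Boll* and *Ddx25* thus held on all 3 scales, and the calls are changes relative to the bulk of genes.

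**Figure D2:**
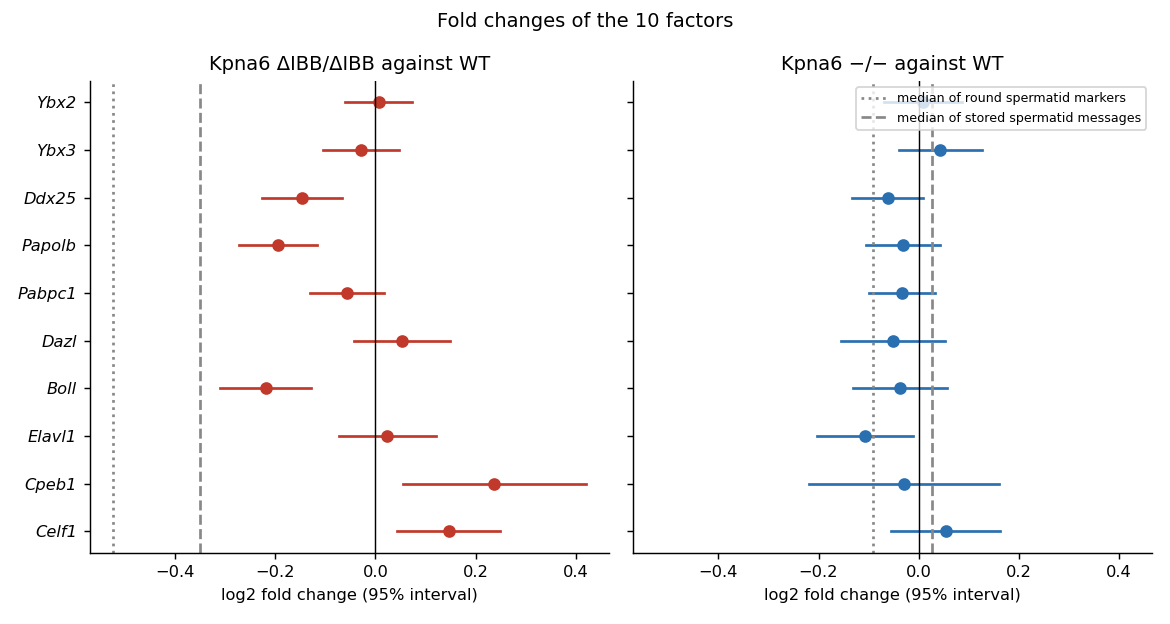
Log2 fold changes (x axis) of the 10 genes in *Kpna6* ΔIBB/ΔIBB and *Kpna6* −/− against WT, with points for the edgeR estimate and lines for the 95% interval. Dotted and dashed grey lines mark the medians of the round spermatid markers and of the 15 stored messages. These medians lie at -0.52 and -0.35 in *Kpna6* ΔIBB/ΔIBB, to the left of all 10 genes, and at -0.09 and 0.03 in *Kpna6* −/−.

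The 15 messages known to be stored stood at a median of -0.35 against WT, as given above, and the 10 genes of their handling proteins at -0.01. *Tnp1*, a transition protein that replaces histones, was lower, at -0.59 (adjusted P = 0.00016), *Smcp*, a cysteine-rich protein of the sperm mitochondria whose translation is delayed, at -0.48 (adjusted P = 1.39e-05), *Odf1* of the outer dense fibres at -0.44 (adjusted P = 1.39e-05) and *Akap3* of the fibrous sheath at -0.42 (adjusted P = 6.23e-05, all edgeR). With library-size scaling 11 of these 15 messages were still called lower. Their summed level was 77100 to 86930 TPM in WT, 65200 to 73340 in *Kpna6* ΔIBB/ΔIBB and 85200 to 87100 in *Kpna6* −/−. Per 1000 TPM of these messages, *Ybx2* stood at 27.9, 28.9 and 31.7 TPM in WT, at 35.6, 37.1 and 41.5 in *Kpna6* ΔIBB/ΔIBB and at 29.3, 27.7 and 29.3 in *Kpna6* −/−. The mean was 29.2% above WT in *Kpna6* ΔIBB/ΔIBB and 2.43% below it in *Kpna6* −/−. For all 10 genes the mean of this ratio was above WT in *Kpna6* ΔIBB/ΔIBB, by 12.8% (*Papolb*) to 93.8% (*Cpeb1*). The WT and *Kpna6* ΔIBB/ΔIBB samples overlapped for *Papolb*, *Boll*, *Ddx25* and *Celf1*. The level of the stored messages in the denominator was lower, so a gene of unchanged level also rises in this ratio. The value is thus not particular to *Ybx2* or to the 10 genes. The value of *Cpeb1* rests on a gene TPM that spread widely between samples, as described below with its transcripts. This ratio within a library needs no scaling between libraries, was formed after the values had been seen and is given without a test.

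In *Kpna6* −/− against WT, 0 of the 10 genes passed the test, beside 1.60% of all 18681 genes. DESeq2 called 0 as well, and only *Elavl1* had an unadjusted P below 0.05 in edgeR (log2 fold change -0.11, unadjusted P = 0.030, adjusted P = 0.274). *Elavl1* measured 82.8, 86.1 and 87.8 CPM in WT and 78.3, 80.2 and 79.9 in *Kpna6* −/−, without overlap. *Ddx25* also showed no overlap, at -0.06 (adjusted P = 0.413). Such separation was seen in 20.0% of all genes in this comparison. The widest intervals were those of *Cpeb1*, a fold change of 0.98 (0.86 to 1.12), and *Celf1*, 1.04 (0.963 to 1.12), and that of *Ybx2* was 1.01 (0.953 to 1.06). Of the 147 tested genes in the lists of related factors and stored messages below, 0 were called in this comparison by edgeR, 14 had an unadjusted P below 0.05, and DESeq2 called 2.

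Between the mutant lines, 4 of 10 genes passed, beside 30.3% of all 18752 genes. In *Kpna6* ΔIBB/ΔIBB, *Papolb* and *Boll* were below the *Kpna6* −/− level, by -0.17 ± 0.03 (adjusted P = 0.0015) and -0.19 ± 0.04 (adjusted P = 0.0030), and *Elavl1* and *Cpeb1* were higher, by 0.12 ± 0.04 (adjusted P = 0.033) and 0.26 ± 0.08 (adjusted P = 0.029, all edgeR). *Boll* changed direction on the limma TPM scale, at 0.01, and the calls of *Papolb* and *Boll* were lost with library-size scaling (adjusted P = 0.063 and 0.076). *Elavl1* was called in 1 and *Cpeb1* in 2 of the 6 fits with a sample left out. *Ddx25* at -0.09 (adjusted P = 0.060) and *Ybx3* at -0.08 (adjusted P = 0.067) did not pass although their groups did not overlap, which was the case for 44.4% of all genes. The comparison shares its *Kpna6* ΔIBB/ΔIBB samples with the one against WT.

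A ratio of 2 genes in the same library does not depend on the scaling. *Boll* and *Dazl* are paralogues expressed at successive stages, *Dazl* earlier and *Boll* from meiosis on. Their log2 ratio of TPM was 1.45, 1.58 and 1.54 in WT, 1.34, 1.23 and 1.32 in *Kpna6* ΔIBB/ΔIBB and 1.63, 1.53 and 1.40 in *Kpna6* −/−. All 3 *Kpna6* ΔIBB/ΔIBB libraries were below all others, with a mean difference from WT of -0.23 (exact permutation test, two-sided, P = 0.1, adjusted P = 0.333 over 30 comparisons), where 0.1 is the smallest P that 3 against 3 samples can give. With estimated counts in place of TPM the difference was -0.27. For *Pabpc1* over its paralogue *Pabpc4*, the log2 ratio was 7.55, 8.03 and 7.77 in WT and 7.27, 7.20 and 7.42 in *Kpna6* ΔIBB/ΔIBB. The groups did not overlap, with a difference of -0.48 (exact P = 0.1, adjusted P = 0.333), and *Pabpc4* itself was higher by 0.52 (adjusted P = 0.00051, edgeR). The ratio of *Ddx25* to *Ddx4*, the helicase vasa, was -1.75 ± 0.021 (SD, n = 3) in WT testis and -1.77 ± 0.027 in *Kpna6* ΔIBB/ΔIBB, and *Ddx4* was lower, at -0.13 (adjusted P = 0.027, edgeR), close to the change of *Ddx25*. For *Papolb* over *Papola*, the somatic poly(A) polymerase, the difference between *Kpna6* ΔIBB/ΔIBB and WT was 0.10 with TPM and -0.09 with counts, so no direction can be given. *Ybx2* over *Ybx1*, the Y-box protein of most cells, was 0.72 ± 0.066 in WT testis, 0.67 ± 0.051 in *Kpna6* ΔIBB/ΔIBB and 0.71 ± 0.026 in *Kpna6* −/−. *Ybx3* over *Ybx1* was lower in all 3 *Kpna6* ΔIBB/ΔIBB samples than in any WT sample, with a difference of -0.10 (exact P = 0.1, adjusted P = 0.333). With counts the difference was -0.05, and the nearest TPM ratios were -0.213 in *Kpna6* ΔIBB/ΔIBB replicate 2 and -0.209 in WT replicate 1. Of the other ratios of *Kpna6* ΔIBB/ΔIBB against WT, *Elavl1* over *Elavl2*, a neuronal and germ-cell paralogue, differed by 0.43 without overlap with TPM and by 0.06 with counts. *Cpeb1* over *Cpeb2* differed by 0.75 with TPM, where the groups overlapped (exact P = 0.2, adjusted P = 0.429), and by 0.36 with counts. *Celf1* over *Celf2* differed by 0.02 with TPM, also with overlap, and by -0.09 with counts. In *Kpna6* −/− against WT, *Papolb* over *Papola* was the single ratio without overlap, at 0.07 with TPM and 0.02 with counts.

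**Figure D3:**
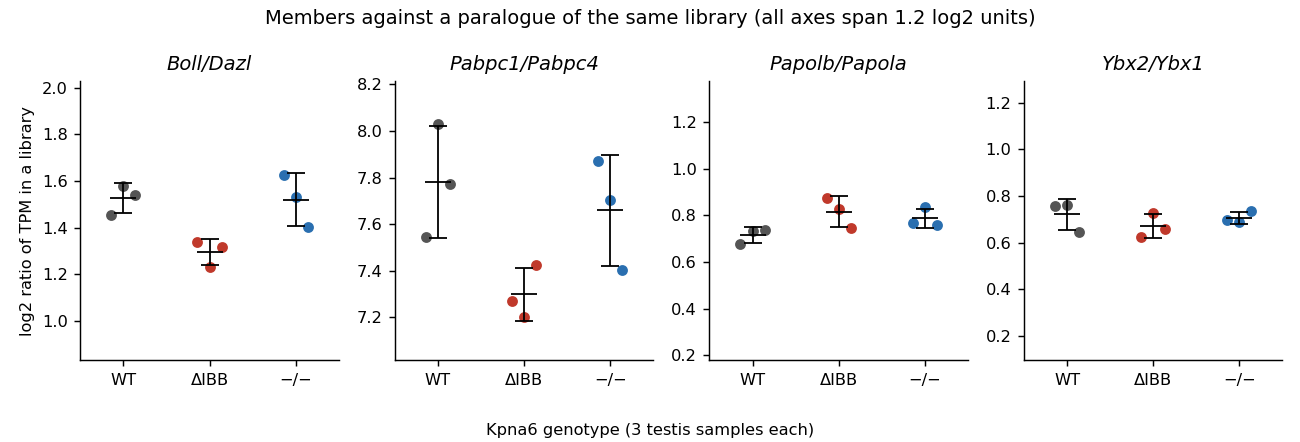
Log2 ratio of the TPM of a gene to that of a paralogue in the same library (y axis, each spanning the same log2 range), with 1 point per testis sample, the mean and the SD. The ratio of *Boll* to *Dazl* averages 1.29 in *Kpna6* ΔIBB/ΔIBB against 1.53 in WT, and *Ybx2* to *Ybx1* overlaps in all 3 groups.

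TPM and counts can diverge where a gene has many transcripts, since kallisto divides reads between them and a short transcript weighs more per read. *Ddx25*, *Papolb* and *Dazl* have 1 transcript each in the files, and *Celf1* has 14. The 2 coding forms of *Ybx3* differ by exon 6 and at the 5′ end. *Ybx3-201* of 1853 bases contains the exon, and *Ybx3-202* of 1684 bases lacks it and begins further upstream in the first exon. This exon lies at chr6:131375974-131376180 (GRCm38, minus strand), is entirely coding and has 207 bases, so that its loss keeps the reading frame. It is shown in capitals from GENCODE M21, with 12 bases of the neighbouring exons on each side.
Ybx3 exon 6: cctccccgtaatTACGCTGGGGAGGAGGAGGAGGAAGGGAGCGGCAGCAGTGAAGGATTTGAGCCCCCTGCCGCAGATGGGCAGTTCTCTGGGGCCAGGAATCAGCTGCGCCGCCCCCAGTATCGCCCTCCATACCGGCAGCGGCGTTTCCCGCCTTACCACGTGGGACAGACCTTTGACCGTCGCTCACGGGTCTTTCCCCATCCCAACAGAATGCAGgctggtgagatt

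Of the TPM of both forms, the one without exon 6 held 17.8%, 18.6% and 18.6% in WT, 18.6%, 18.3% and 18.5% in *Kpna6* ΔIBB/ΔIBB, and 24.5%, 22.7% and 22.2% in *Kpna6* −/−. The 3 *Kpna6* −/− samples were above all 6 others, and with estimated counts they stood at 22.5%, 20.7% and 20.3% against 16.2% to 17.0% in WT. This share was picked after the values were seen and has no test. In the test of the most abundant transcript, *Ybx3-201* held 75.8% of the gene's TPM in WT testis, 72.5% in *Kpna6* −/− and 77.3% in *Kpna6* ΔIBB/ΔIBB, and the difference of -3.26 percentage points between *Kpna6* −/− and WT had no overlap (exact permutation test, P = 0.1, adjusted P = 0.467 over 21 comparisons). The total level of *Ybx3* did not pass the test in that comparison (log2 fold change 0.04, adjusted P = 0.658, edgeR). Of 175 tested genes within 10 Mb of *Ybx3*, 19 were called in *Kpna6* −/− against WT, which is 10.9% beside 1.60% of all genes. Whether sequence differences linked to this region affect the assignment of reads to the 2 forms was not tested.

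In *Celf1*, a short non-coding transcript of 489 bases, *Celf1-209*, held 47.6% to 51.6% of the gene's TPM in WT, 36.8% to 41.8% in *Kpna6* ΔIBB/ΔIBB and 37.7% to 47.9% in *Kpna6* −/−, but only 3.78% of its counts in WT. The difference between *Kpna6* ΔIBB/ΔIBB and WT was -9.60 percentage points (exact P = 0.1, adjusted P = 0.467). The 9 coding transcripts of *Celf1* together had 15.3 ± 1.1 TPM (SD, n = 3) in WT testis, 18.7 ± 0.45 in *Kpna6* ΔIBB/ΔIBB and 16.3 ± 0.51 in *Kpna6* −/−, without overlap between the first pair, whereas the total TPM of the gene was 33.5 ± 2.7 and 34.2 ± 1.1. In *Cpeb1*, the coding transcripts had 5.24 ± 0.24 TPM in WT testis, 6.46 ± 0.08 in *Kpna6* ΔIBB/ΔIBB and 4.92 ± 0.36 in *Kpna6* −/−. A transcript of 335 bases, *Cpeb1-202*, held 13.2% to 37.2% of its TPM in WT and 17.9% to 46.5% in *Kpna6* ΔIBB/ΔIBB, and this wide spread enters the total of the gene, 9.38 ± 2.4 and 15.5 ± 3.6 TPM. In *Elavl1*, the coding transcripts had 27.8 ± 0.70 TPM in WT testis, 32.6 ± 1.1 in *Kpna6* ΔIBB/ΔIBB and 25.9 ± 0.13 in *Kpna6* −/−. Its longest form, *Elavl1-201* of 5743 bases, had a share of 35.6% ± 3.9 in WT and 29.2% ± 2.0 in *Kpna6* ΔIBB/ΔIBB. In *Ybx2*, the coding *Ybx2-201* held 56.6% ± 2.2, 56.9% ± 1.1 and 55.8% ± 2.5 of the TPM in the 3 groups, which overlapped. Short retained-intron transcripts held most of the rest of the TPM, but not of the counts. By counts in WT, the retained-intron *Ybx2-203* held 4.03% to 4.35% and *Ybx2-204* 3.58% to 6.34%. The coding *Ybx2-202* held 11.7% to 12.3% of these counts. *Boll-202* held 48.3% ± 0.69 in WT and 49.8% ± 0.18 in *Kpna6* ΔIBB/ΔIBB (exact P = 0.1, adjusted P = 0.467).

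**Figure D4:**
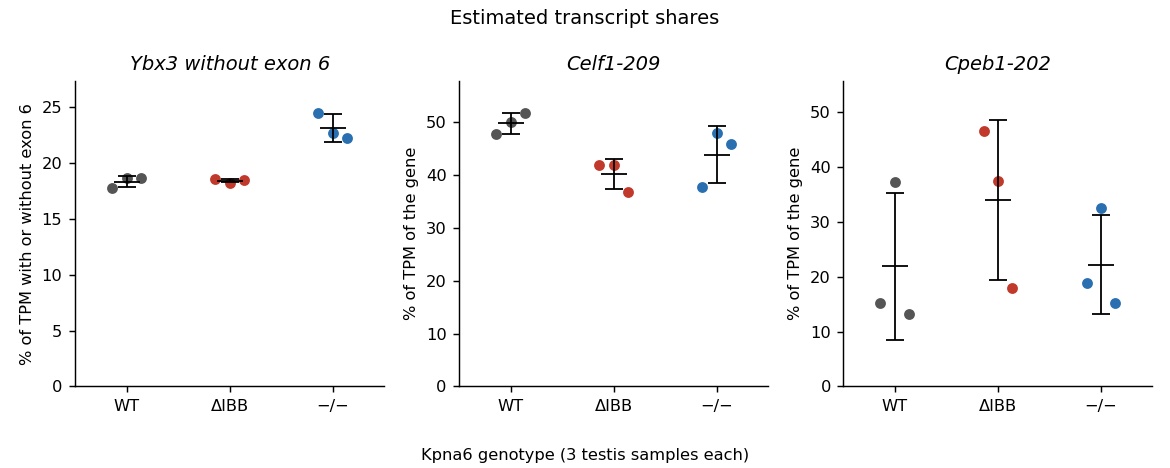
Estimated shares of transcripts in percent (y axes from 0), with 1 point per testis sample, the mean and the SD. The *Ybx3* form without exon 6 lies between 22.2% and 24.5% in *Kpna6* −/− and below 19% in the other groups, *Celf1-209* is lower in *Kpna6* ΔIBB/ΔIBB than in WT, and *Cpeb1-202* overlaps between all groups.

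The wider families moved in both directions in *Kpna6* ΔIBB/ΔIBB against WT. Over all lists of related factors, without the 10 members and the stored messages, 17 of 133 tested genes were higher and 31 lower, a share of 36.1% beside the 36.6% of all genes, so these counts are not particular to the lists. Of 4 CPEB genes, *Cpeb1* was the single one that was higher, and *Cpeb2*, *Cpeb3* and *Cpeb4* were lower, at -0.12, -0.47 and -0.24. With library-size scaling 1 was higher and 2 were lower. Of 6 CELF genes, *Celf1* and *Celf2* were higher, the latter by 0.23 (adjusted P = 0.025), and *Celf3*, *Celf4* and *Celf6* were lower, with *Celf3* at -0.53 (adjusted P = 3.28e-05), and with library-size scaling 2 were higher and 1 lower. Of the 10 tested poly(A)-binding proteins and partners, 1 was higher and 5 were lower, but 2 were higher and 0 lower with library-size scaling. The lower ones included *Paip2*, an inhibitor of *Pabpc1* protein, at -0.20 (adjusted P = 0.0044), and *Pabpc2*, a testis paralogue, at -0.15 (adjusted P = 0.025, edgeR). Of 10 poly(A) polymerases, *Tent4a* and *Tent5b* were higher, at 0.30 and 0.36, and *Papolb*, *Tent5c* and *Tent5d* were lower, the latter pair at -0.26 and -0.24, and with library-size scaling 2 were higher and 2 lower. Of 5 helicases, *Ddx25*, *Ddx4* and *Ddx20* were lower and *Ddx3x* was higher, at 0.36 (adjusted P = 0.00089), whereas 2 were higher and 1 lower with library-size scaling. Of 14 cap-binding factors and repressors, 2 were higher and 5 lower (3 and 2 with library-size scaling). The largest changes were those of *Eif4e*, the cap-binding protein, at -0.61 (adjusted P = 1.51e-05), *Eif4e3* at -0.44 (adjusted P = 0.036), *Eif4g1*, the scaffold of the initiation complex, at -0.36 (adjusted P = 0.00021), and *Eif4a1*, its helicase, at 0.28 (adjusted P = 0.00040, edgeR).

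Of 17 cleavage and polyadenylation factors, 4 were lower by edgeR with TMM, namely *Pcf11*, *Clp1*, *Sympk* and *Pabpn1*, from -0.40 to -0.13, whereas 5 were higher and 1 lower with library-size scaling. Of 25 deadenylases and decay factors, 3 were higher and 3 lower, and with library-size scaling 9 and 0. *Zfp36l2*, which binds AU-rich elements, was at 0.42 (adjusted P = 0.0062) and *Parn*, a poly(A)-specific ribonuclease, at -0.26 (adjusted P = 0.0089). Of 36 other RNA-binding proteins of spermatogenesis, 7 were higher and 5 lower, and 16 and 2 with library-size scaling. The 4 largest changes were *Prkra* at 0.48, *Rbm3*, a cold-inducible protein, at 0.39, *Fxr1*, which gathers stored messages for translation in spermatids, at -0.28 and *Igf2bp3* at -0.26. In the DAZ, PUF and NANOS list *Boll* was the 1 gene called of 10 tested, and in the Y-box and ELAV-like lists 0 were called by edgeR, where unadjusted P-values below 0.05 numbered 0 and 1, although library-size scaling gave 2 higher in each. The medians of these lists lay between -0.18 and 0.02, beside 0.01 for all genes.

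Other cell-type markers in *Kpna6* ΔIBB/ΔIBB against WT stood as follows. Of the pachytene spermatocyte markers 2 of 10 were lower and 3 had an unadjusted P below 0.05 (edgeR), with a median of -0.03, and of the leptotene to zygotene markers 3 were higher and 3 lower. Of 9 tested spermatogonium markers 3 were higher and 1 lower, of 8 macrophage markers 4 were higher, of 8 peritubular and endothelial markers 3 were higher and 1 lower, and of 8 Leydig cell markers 2 were higher. In *Kpna6* −/− against WT, 2 of 10 Sertoli markers were higher, 1 spermatogonium marker was lower and 0 of the other markers were called by edgeR, among which 3 round spermatid, 3 leptotene to zygotene and 2 pachytene markers had an unadjusted P below 0.05. DESeq2 gave the same counts of 2 and 1. In this line all 10 Sertoli markers had positive changes against WT, with a median of 0.22. All 10 round spermatid markers had negative ones, with a median of -0.09.

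Over the 9 samples, the genes whose log2(TPM + 1) was most like that of a member, among 9189 compared, were *Med25* (Pearson r = 0.992) and *Dgcr6* (0.98) for *Ybx2*, *Dnmt1* (0.991) and *Dvl1* (0.973) for *Ybx3*, and *Atxn2l* (0.973) and *Fam133b* (0.964) for *Pabpc1*. For *Papolb* they were *Ube2d2b* (0.971) and *4931417E11Rik* (0.957), for *Boll* *Rab27a* (0.936) and *Asz1* (0.924), and for *Ddx25* *Hbs1l* (0.935) and *Dnm2* (0.929). For *Dazl* they were *Dnajc10* and *Mrpl53* (both 0.964), for *Elavl1* *Dus1l* (0.972) and *Smad2* (0.966), for *Cpeb1* *Rnf144b* (0.978) and *Stx16* (0.964), and for *Celf1* *Ndufv2* (0.963) and *Sec24d* (0.918). These correlations describe 9 libraries that share 3 genotypes and their cell composition, and the values are the highest of many.

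Near-identical sequence concerned *Pabpc1*, which shared at least 100 bases at 95% identity or more with 61 other genes, 2 of them over more than 0.5 of a transcript, and *Elavl1*, which shared such a stretch with 1 gene. Summing these genes with the member left the calls of *Pabpc1* as they were and took the difference of *Elavl1* between the mutant lines from an adjusted P of 0.033 to 0.066. The other 8 genes shared no such stretch.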

How the data were processed

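Poly(A)-selected RNA of 9 whole testes was sequenced. The authors ran kallisto against mm10 (0.45 in the submitters' processing notes) and deposited, per transcript, an estimated count without any scaling across libraries, beside its TPM, a length-corrected value that adds up to the same total in each library. The transcripts carry Ensembl identifiers, and the Ensembl release is not given in the sources used here.

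Both values were summed per gene for the 95301 of 96626 transcripts (98.63%) listed in GENCODE M21 (GRCm38). Gene counts were rounded, filtered with filterByExpr, scaled by TMM and tested in edgeR 4.0.16 (R 4.3.3, glmQLFTest) on the 6 samples of each comparison, with Benjamini-Hochberg adjustment over all genes tested and a threshold of 0.05. SE values and 95% intervals come from that fit. Ratios and transcript shares were tested with exact permutation tests (scipy 1.17.1). The alternatives were DESeq2 1.42.0, other filters and scalings, limma 3.58.1 on TPM, a replicate block, and each sample left out. Near-identical transcripts were sought with blastn 2.17.0+. The fits were also run on simulated counts. The changes simulated were larger than those of the members called, so this run does not cover changes of their size. No 2 libraries were identical.

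The genes, lists and tests were chosen with earlier results of these data known. Besides the 10 members, genes named are their paralogues, *Kpna6*, the 2 most similar genes per member with a mean of at least 10 TPM, and called genes of the lists (the 4 largest changes where more than 6 were called). Promoter windows come from RefSeq (GRCm38.p6), by way of a table that held 9 of the members. *Pabpc1* was not in that table.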

Additional observations from a re-analysis of the deposited data

How the results depend on the processing

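In *Kpna6* ΔIBB/ΔIBB against WT, the count of 5 genes called became 3 with limma on log2(TPM + 1) and on log2(TPM + 0.1), which were *Ybx2*, *Dazl* and *Elavl1* and included 0 of the 5, and 3 to 4 when a sample was left out (*Papolb*, *Boll* and *Ddx25* each time, and 3 without WT replicate 1, WT replicate 2, *Kpna6* ΔIBB/ΔIBB replicate 1 or *Kpna6* ΔIBB/ΔIBB replicate 2). Between the mutant lines the 4 became 2 with length-scaled TPM counts (*Papolb* and *Elavl1*) and 2 to 4 when a sample was left out (*Papolb* and *Boll* alone without *Kpna6* ΔIBB/ΔIBB replicate 2 or *Kpna6* −/− replicate 1). The main fit called 2 higher and 2 lower in *Kpna6* ΔIBB/ΔIBB. With library-size scaling 5 were higher and 0 lower, and with limma on log2(TPM + 1) 4 were higher and 0 lower. *Ybx2* was called in 1 and *Pabpc1* in 2 of 17 alternatives, although neither was called in the main fit. In *Kpna6* −/− against WT the count was 0 under every alternative run, while the calls over all genes moved from 299 to 477 with DESeq2, 624 without a filter, 70 with length-scaled counts, 32 and 33 with limma, and 92 to 518 when a sample was left out (92 without *Kpna6* −/− replicate 1, 518 without WT replicate 1, and 135, 145, 113 and 180 without WT replicate 2, WT replicate 3, *Kpna6* −/− replicate 2 and *Kpna6* −/− replicate 3). Where the cause is not the smaller number of samples, it was not tested.

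Signs changed in the called differences of *Celf1* (*Kpna6* ΔIBB/ΔIBB against WT) and *Boll* (between the lines), and otherwise in values that had not passed the test in the main fit. The causes were not tested. Against WT in *Kpna6* ΔIBB/ΔIBB, *Ybx3* was at 0.07 with library-size scaling and 0.076 with limma at both pseudocounts, *Pabpc1* at 0.042 and 0.063, and *Celf1* at -0.08 with length-scaled counts. In *Kpna6* −/− against WT, with length-scaled counts and limma at pseudocounts of 1 and 0.1, *Cpeb1* was at 0.075, 0.072 and 0.08, and *Celf1* at -0.093, -0.103 and -0.106. Between the lines, with library-size scaling and limma at both pseudocounts, *Ybx2* was at 0.089 and 0.111, *Ybx3* at 0.018 and 0.051, *Ddx25* at 0.005 and 0.047, *Pabpc1* at 0.068 and 0.128, and with limma *Boll* at 0.012. When a sample was left out, *Ybx2* ranged from -0.013 to 0.021, from -0.026 to 0.035 and from -0.036 to 0.023 in the 3 comparisons, *Elavl1* from -0.002 to 0.042 in *Kpna6* ΔIBB/ΔIBB against WT, *Cpeb1* from -0.081 to 0.02 in *Kpna6* −/− against WT, and *Pabpc1* from -0.048 to 0.001 between the lines.

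Of the log2 ratios, counts in place of TPM gave -0.0923 and -0.113 for *Papolb*/*Papola* in *Kpna6* ΔIBB/ΔIBB against WT and against *Kpna6* −/−, -0.085 for *Celf1*/*Celf2* against WT, and in *Kpna6* −/− against WT 0.0229 for *Ybx3*/*Ybx1*, 0.0147 for *Boll*/*Dazl* and -0.146 for *Elavl1*/*Elavl2*. When a sample was left out, the *Kpna6* −/− differences from WT ranged from -0.0524 to 0.0053 for *Ybx2*/*Ybx1*, -0.0273 to 0.0171 for *Ybx3*/*Ybx1*, -0.0491 to 0.0281 for *Ybx2*/*Ybx3*, -0.0141 to 0.0217 for *Ddx25*/*Ddx4*, -0.239 to 0.00739 for *Pabpc1*/*Pabpc4*, -0.059 to 0.0543 for *Boll*/*Dazl*, -0.0519 to 0.184 for *Elavl1*/*Elavl2* and -0.0293 to 0.371 for *Cpeb1*/*Cpeb2*. *Celf1*/*Celf2* ranged from -0.0404 to 0.0913 in *Kpna6* ΔIBB/ΔIBB against WT, and *Papolb*/*Papola* from -0.000289 to 0.0652 between the lines.

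Samples with the same replicate number deviated together little (r from -0.055 to 0.08), and the main fits did not pair them. With 3 samples per group these values cannot show whether samples of the same number were handled together. With the replicate block 4, 0 and 4 of the 10 genes were called in the 3 comparisons, *Cpeb1* being lost in the first (adjusted P = 0.056, edgeR), and 6793, 229 and 6032 of all genes. With 3 samples per group the fold change of *Cpeb1* in *Kpna6* −/− had an interval of 0.86 to 1.12, and exact tests could not go below P = 0.1.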
